A study of Homo sapiens with 41 samples.

Results

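The 10 genes described here encode the enzymes that hydroxylate proline and lysine in collagen, together with 1 related adaptor protein: P4HA1, P4HA2, P4HA3, PLOD1, PLOD2, PLOD3, P3H1, P3H2, P3H3 and P3H4. They were chosen by name, and each matched 1 Ensembl gene among the 58735 in the count files. RNA was sequenced from LX-2, an immortalised human hepatic stellate cell line, and from HMLE, an immortalised human mammary epithelial line. All groups had a hairpin: shCtrl, the control, or shATF4, directed at ATF4, the transcription factor of the integrated stress response. LX-2 cells received DMSO (the vehicle), TGFbeta (a fibrogenic cytokine), thapsigargin (Tg, an inhibitor of the ER calcium pump) or AA_Dep, taken here to mean deprivation of amino acids. In HMLE the conditions were DMSO, thapsigargin, AA_Dep and Twist_OE, in which the transcription factor Twist was overexpressed. This made 16 groups of 2 samples, and the labels name a single hairpin against ATF4 and give no dose and no duration. Nothing in the labels says that the 2 samples of a group came from separate cultures. The p-values set a difference against the spread between such samples, pooled over all groups of a fit, and that spread may be technical.

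Collagen chains are hydroxylated in the ER before they fold into a triple helix. Prolyl 4-hydroxylase is made of a catalytic alpha subunit (P4HA1, P4HA2 or P4HA3) bound to protein disulfide isomerase, encoded by P4HB, and its product, 4-hydroxyproline, keeps the triple helix stable at body temperature. The lysyl hydroxylases PLOD1, PLOD2 and PLOD3 make the hydroxylysine that carries sugars and that takes part in crosslinks between collagen molecules. PLOD1 acts on the triple helix, PLOD2 on the telopeptides at the chain ends, and PLOD3 also transfers sugars to hydroxylysine. The prolyl 3-hydroxylases P3H1, P3H2 and P3H3 modify few prolines. P3H1 works in a complex with CRTAP and the cyclophilin PPIB, and P3H4, which is not known to be catalytic, binds P3H3 and PLOD1. All the catalytic members need iron, oxygen, alpha-ketoglutarate and ascorbate.

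The promoters of P4HA1 and PLOD2 are shown because both genes are known to be induced by hypoxia and both changed under treatment in LX-2 and in HMLE. Of the 10 genes, 8 had an entry in RefSeq's promoter table for GRCh38.p14, and the 250 bases before each start were searched on both strands for 8 short motifs. These were ACGTG, the core of the hypoxia response element, TGATGNAA, a composite ATF4 and C/EBP core, the ER stress response element (CCAAT, then 9 bases of any kind, then CCACG), the E-box CATATG and the E-box CAGATG, both of the Twist type, the SMAD palindrome GTCTAGAC, the TATA-type box TATAAA and the GC box GGGCGG. The hypoxia core ACGTG lay in the promoters of P4HA1 and PLOD2 and in the alternative promoter of P3H2, and it occurs in 18.5% of the 35116 promoters of that length. In the sequences the capitals mark ACGTG or its reverse complement CACGT, and both are printed on the minus strand of the genome, which is the strand of the gene.
P4HA1 (chr10:73096867-73097116): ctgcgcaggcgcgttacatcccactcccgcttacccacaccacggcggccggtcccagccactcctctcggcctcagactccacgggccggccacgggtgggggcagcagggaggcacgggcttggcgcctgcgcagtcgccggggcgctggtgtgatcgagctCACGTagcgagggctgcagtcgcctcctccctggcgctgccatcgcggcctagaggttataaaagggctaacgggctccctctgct
PLOD2 (chr3:146161185-146161434): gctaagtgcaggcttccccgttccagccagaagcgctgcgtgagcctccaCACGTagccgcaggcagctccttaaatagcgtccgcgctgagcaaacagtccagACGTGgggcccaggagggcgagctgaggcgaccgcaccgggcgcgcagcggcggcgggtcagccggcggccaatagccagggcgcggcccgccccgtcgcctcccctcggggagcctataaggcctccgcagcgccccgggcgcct
Counted from the start of the gene, the P4HA1 match spans bases -86 to -82, and the PLOD2 matches span -200 to -196 and -146 to -142. In the P3H2 entry at chr3:190120898-190121147 the match is the palindrome CACGTG at -195 to -190. TATAAA, found in 10.7% of promoters, lay at -29 to -24 in P4HA1, and the GC box, found in 42.6%, lay in 5 of the 8 genes (P3H1, P3H2, PLOD1, PLOD2 and PLOD3). None of the 8 genes held TGATGNAA (3.14% of promoters), the ER stress element (0.074%), CATATG (2.63%), CAGATG (12.2%) or the SMAD palindrome (0.182%) in these windows. A match describes the letters of the window and was not tested as a binding site.

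Total counts per library lay between 14551191 and 18776430 for LX-2 and between 15956909 and 23243132 for HMLE. Levels are CPM, the counts of a gene relative to the total counts of its library, after TMM scaling over all 31 distinct libraries. They were compared only within a gene, because counts also depend on transcript length. Where groups are said to lie apart or not to overlap, this describes the libraries and is no further test. The share of all genes whose groups lie apart was not computed. The 2 HMLE shATF4 AA_Dep samples held identical values and were counted as 1 library, assumed to vary like the other groups. In LX-2, shCtrl thapsigargin library 2 stood apart: 15840 genes had a count there, while 22912 to 24255 genes did in the remaining libraries of this line, and its correlation with its replicate was 0.935 (log2 CPM), below the 0.991 or more of the other pairs. It was left out of the LX-2 fit, so that this group is represented by library 1 alone, and values with it are given beside the results. Of 9 stellate or mesenchymal markers, 6 and 7 reached 1 CPM in the LX-2 shCtrl DMSO libraries, with DES at 0 in library 2, while hepatocyte markers summed to at most 0.331 CPM in LX-2, and to 1.02 CPM in the discordant library. The 9 mammary epithelial markers summed to 372 to 1485 CPM in LX-2, from KRT8, KRT18 and CLDN4, the 3 that reached 1 CPM there, with the basal keratin KRT6A at 0 throughout, and to 2639 CPM in the discordant library. All 9 mammary epithelial markers reached 1 CPM in HMLE shCtrl DMSO.

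ATF4 itself, the targeted gene, stood at 207 and 234 CPM in the LX-2 shCtrl DMSO libraries and at 122 and 109.6 CPM with the ATF4 hairpin. In HMLE DMSO the corresponding levels were 463 and 486 CPM and 136 and 129 CPM. The hairpin libraries lay below the control libraries in all 8 pairs of line and condition. The log2 difference ran from -2.78 in HMLE AA_Dep to -0.91 in LX-2 DMSO.

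In shCtrl DMSO cells, 6 of the 10 genes were higher in LX-2 than in HMLE and 2 were lower, near the 70.4% of all genes called in either direction by edgeR's quasi-likelihood test with Benjamini-Hochberg adjustment over all genes (adjusted p under 0.05, the rule for every call here). P3H1, which modifies fibrillar collagens, stood at 75.4 and 89.9 CPM in LX-2 and 19.3 and 19.0 CPM in HMLE. The LX-2 libraries were all above the HMLE libraries, a log2 difference of 2.11 (SE 0.081, edgeR adjusted p = 3.2e-18). P3H2, whose preferred substrate is basement membrane collagen, ran the other way, with 8.83 and 10.6 CPM in LX-2 and 56.1 and 57.7 CPM in HMLE, a log2 difference of -2.55 (SE 0.092, edgeR adjusted p = 8.3e-19). Both differences were larger than the gap between replicates.

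P4HA2 was also higher in LX-2, by 1.54 on the log2 scale, as were PLOD2 (0.97), PLOD3 (0.71) and P3H3 (1.24), whereas P4HA1 was lower (-0.39). P4HA3 had 29 and 22 counts in LX-2 and 3 and 1 counts in HMLE, and it passed the test at these low counts (log2 difference 3.61, edgeR adjusted p = 1.5e-05). Over all HMLE libraries P4HA3 had 1 to 10 counts, and no HMLE comparison called it, so no fold is given for it there. RefSeq places the gene PPME1 and an antisense transcript over P4HA3, and antisense transcripts over P4HA2 and P3H2, and the strand setting of the counting is not given in the sources used here, so reads of these pairs cannot be told apart. PLOD1 and P3H4 did not pass, at log2 differences of 0.065 (edgeR adjusted p = 0.39) and -0.021 (0.85). The same 8 calls were made with the discordant library kept (51.5% of all genes called).

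TGFbeta raised 7 of the 10 genes in LX-2 shCtrl cells and lowered none. The largest rise on the fold scale was that of P4HA3, at low counts, followed by P4HA1 (2.53-fold), PLOD2 (2.23-fold), P4HA2 (1.88-fold) and P3H2 (1.86-fold). Across all genes, 22.1% were called in either direction. The median log2 change of the 10 genes was 0.77, where that over all genes tested rounds to 0. In RNA from a whole culture, a change in each cell cannot be told apart from a change in the share of cells that express a gene. Cell type markers moved in the same comparison. The 9 stellate or mesenchymal markers, COL1A1, COL1A2 and COL3A1 among them, summed to 6496 and 6977 CPM in DMSO and 17838 and 17830 CPM in TGFbeta, and the 9 mammary epithelial markers to 758 and 891 CPM and then 1369 and 1485 CPM. VIM, a mesenchymal marker that is no collagen, stood at 1410 and 1524 CPM and then 1283 and 1327 CPM. Their part in the result was not tested.

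All 3 catalytic alpha subunits of prolyl 4-hydroxylase rose. P4HA1 went from 43.5 and 46.4 CPM in DMSO to 108 and 115 CPM in TGFbeta, a log2 change of 1.34 (SE 0.09, edgeR adjusted p = 2.1e-08). The lower TGFbeta library was above the higher DMSO library by more than the spread within either group. P4HA2 went from 188 and 210.2 CPM to 368 and 365 CPM, a change of 0.91 (SE 0.071, edgeR adjusted p = 1.2e-07). P4HA3 had 29 and 22 counts in DMSO and 61 and 81 in TGFbeta, a change of 1.62 (SE 0.33, edgeR adjusted p = 0.0019). Their shared partner P4HB rose less, by 0.25 (adjusted p = 0.015).

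Among the lysyl hydroxylases, PLOD2 moved most. Its levels were 219 and 211 CPM in DMSO and 479.6 and 464 CPM in TGFbeta, a log2 change of 1.16 (SE 0.091, edgeR adjusted p = 1.3e-07). FKBP10, the chaperone that works with PLOD2, rose by 0.32 (adjusted p = 0.026). PLOD1 rose by 0.31 (adjusted p = 0.01), a call that was lost without DMSO library 1 or without either TGFbeta library (edgeR adjusted p of 0.076 to 0.13). PLOD3, at 177 and 205 CPM against 218 and 219.6 CPM, did not pass (0.22, adjusted p = 0.056).

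The prolyl 3-hydroxylases split. P3H1 rose from 75.4 and 89.9 CPM to 127 and 125 CPM, a log2 change of 0.64 (SE 0.084, edgeR adjusted p = 4e-05), and P3H2 from 8.83 and 10.6 CPM to 17.5 and 18.0 CPM, a change of 0.90 (SE 0.13, edgeR adjusted p = 0.00013). In both genes the groups did not overlap. P3H3, at 69.7 and 80.3 CPM and then 66.4 and 68.4 CPM, and P3H4, at 73.0 and 83.9 CPM and then 86.2 and 86.1 CPM, did not pass (edgeR adjusted p = 0.48 and 0.32). The partners of P3H1 did not pass either, with CRTAP at -0.093 (adjusted p = 0.38) and PPIB at 0.22 (adjusted p = 0.1).

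**Figure D1:**
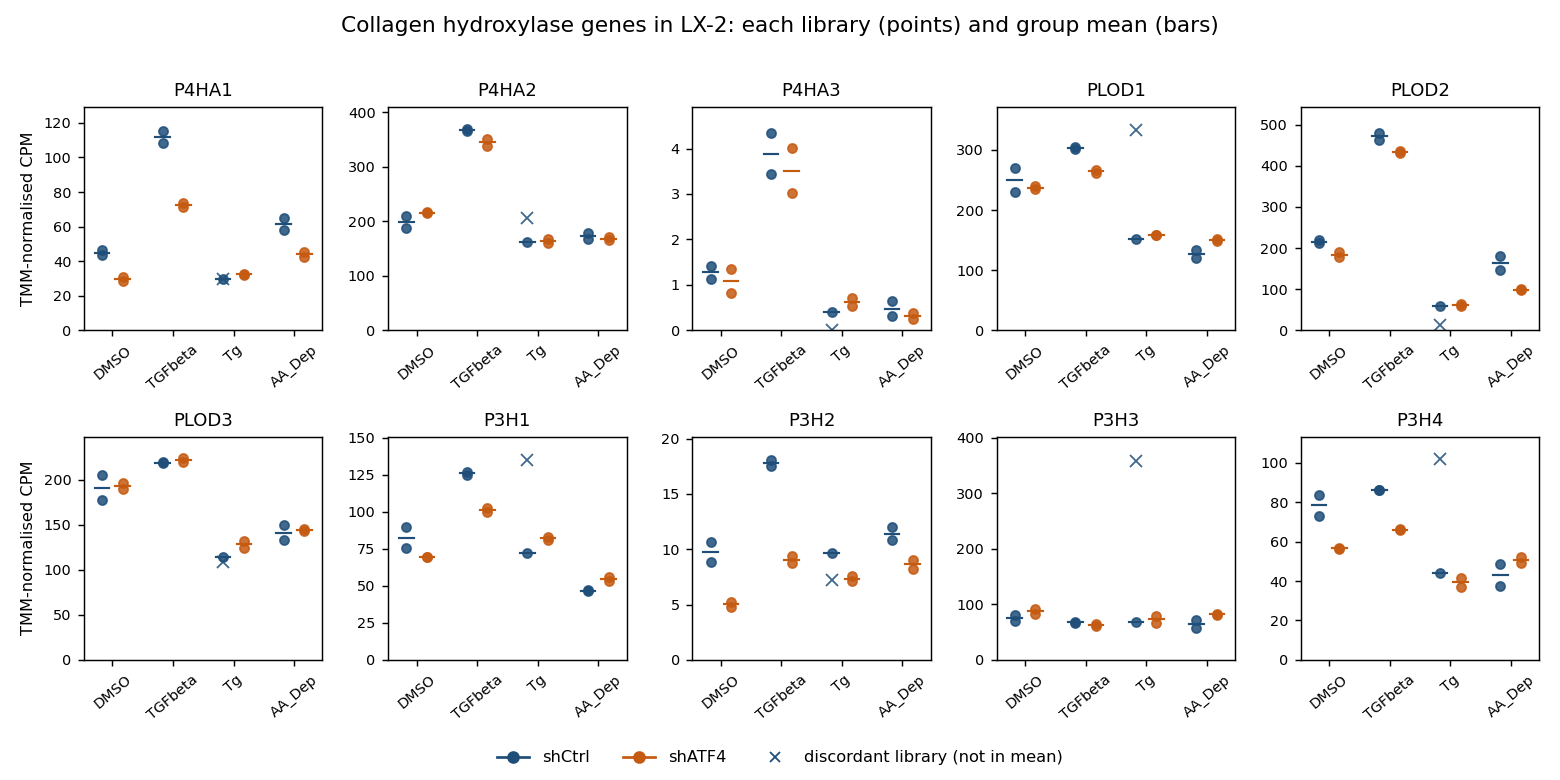
Level of each of the 10 genes in LX-2, in TMM-normalised CPM, by condition (Tg is thapsigargin) for the shCtrl (blue) and shATF4 (orange) hairpins. Points are libraries, bars are group means, and the cross is the discordant shCtrl Tg library, which is not in the mean. P4HA1, P4HA2, P4HA3 and PLOD2 have their highest libraries in TGFbeta.

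The substrates and chaperones of the same pathway moved in TGFbeta as well. Of 9 fibrillar collagen genes tested, 7 rose and none fell (median log2 change 1.65), with COL27A1 at 2.56 and COL1A2 at 2.32. Of 9 genes for procollagen chaperoning and export, 7 rose and none fell, led by SEC24D, a coat protein of ER export (0.88). Of 9 hypoxia-inducible genes, a group to which P4HA1 and PLOD2 are also known to belong, 5 rose and 1 fell. VEGFA rose by 1.56 and ADM fell by 2.37 on the log2 scale. The 5 prolyl hydroxylases of other substrates, which include the oxygen sensors EGLN1 to EGLN3, held no rise and 1 fall, that of P4HTM (-0.61). With the discordant library kept, which widens the spread assumed for all LX-2 groups, 3 of the 10 genes passed (3.15% of all genes): P4HA1 at 1.34 (adjusted p = 0.00066), P4HA2 at 0.90 (adjusted p = 0.019) and P3H2 at 0.89 (adjusted p = 0.021).

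Thapsigargin lowered 7 of the 10 genes in LX-2 and raised none with library 2 left out, against 40.5% of all genes called in either direction. The falls of PLOD1, P3H4 and P4HA2 rest on library 1 alone. The median log2 change of the 10 genes was -0.63, against 0.01 over all genes. PLOD2 had the largest fall among genes with more than 10 CPM, 3.60-fold. The stellate or mesenchymal markers summed to 1607 CPM in thapsigargin library 1 and 2151 CPM in library 2, below both DMSO libraries, and the mammary epithelial markers to 385 and 2639 CPM, on either side of them, and their part was not tested.

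PLOD2 stood at 219 and 211 CPM in DMSO, at 58.7 CPM in thapsigargin library 1 and at 13.2 CPM in the discordant library 2. Both thapsigargin libraries were below both DMSO libraries. The log2 change was -1.85 (SE 0.12, edgeR adjusted p = 1.2e-08), and -2.53 (adjusted p = 0.0027) with library 2 kept. P4HA1 stood at 29.6 and 29.9 CPM in the 2 thapsigargin libraries, below its 43.5 and 46.4 CPM in DMSO, a change of -0.58 (SE 0.12, edgeR adjusted p = 0.0009). PLOD3 stood at 114 and 109 CPM, below its 177 and 205 CPM in DMSO, a change of -0.72 (SE 0.1, edgeR adjusted p = 3.6e-05). These 3 falls passed both without and with library 2.

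PLOD1, P3H4 and P4HA2 depended on the library used. PLOD1 was 152 CPM in library 1 and 333 CPM in library 2, on either side of its 229.6 and 269 CPM in DMSO. The log2 change was -0.69 (SE 0.1, edgeR adjusted p = 4.6e-05) with library 1, 0.11 (adjusted p = 0.81) with both, and 0.57 with library 2 alone. P3H4 was 44.1 CPM in library 1 and 102 CPM in library 2, with a change of -0.80 (adjusted p = 0.00025), and of 0.044 (adjusted p = 0.93) with both. P4HA2 fell by 0.28 (adjusted p = 0.018) with library 1 and changed by 0.19 with library 2 alone, and its call was also lost without DMSO library 2 (edgeR adjusted p = 0.093).

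P4HA3 had 8 counts in thapsigargin library 1 and 0 in library 2, against 29 and 22 in DMSO, a log2 change of -1.64 (adjusted p = 0.027) that was lost without DMSO library 1 (edgeR adjusted p = 0.098). P3H1, P3H2 and P3H3 did not pass with library 2 left out, with log2 changes of -0.17, 0.018 and -0.11. P3H3 showed the widest gap between the 2 libraries, at 68.5 CPM and 357 CPM, and with both kept it was called higher (1.68, adjusted p = 0.039). With library 2 kept, 5 of the 10 genes passed, 1 higher and 4 lower (34.4% of all genes): P3H3 rose, and P4HA1, P4HA3, PLOD2 and PLOD3 fell.

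Of the 3 partners P4HB, PPIB and CRTAP, P4HB and PPIB rose and CRTAP fell in thapsigargin library 1. All changes in this paragraph are with library 2 left out, so they rest on thapsigargin library 1 alone, and whether they hold in library 2 is not given. P4HB stood at 961 and 1093 CPM in DMSO and 1661 CPM in thapsigargin library 1, a rise of 0.72, while the alpha subunit P4HA1 fell. The fall of the alpha subunit P4HA2 depended on the library used. PPIB, the cyclophilin of the P3H1 complex, rose by 1.61 (adjusted p = 9.4e-09), and CRTAP, the other member of that complex, fell by 0.64 (adjusted p = 3.1e-05). All 14 ER chaperones rose (median log2 change 2.31), with HSPA5, the main ER chaperone, at 3.85. Of 9 fibrillar collagen genes, 8 fell and none rose (median -2.04), with COL1A2 at -5.55. Procollagen chaperones and export factors split into 4 higher and 4 lower of 9, with the export receptor MIA2 at 1.46 and SERPINH1, the collagen chaperone HSP47, at -1.25.

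In HMLE, thapsigargin moved 7 of the 10 genes by small amounts, 3 higher and 4 lower, against 36.8% of all genes called. The median log2 change of the 10 genes, P4HA3 with its few counts included, was -0.095. P3H4 had the largest fall, from 79.8 and 79.3 CPM in DMSO to 44.7 and 45.1 CPM, a log2 change of -0.83 (SE 0.056, edgeR adjusted p = 7.9e-10). P4HA1 rose from 61.1 and 57.1 CPM to 71.5 and 74.3 CPM, a change of 0.29 (SE 0.054, edgeR adjusted p = 0.00022), and PLOD3 fell from 116 and 118 CPM to 100 and 92.2 CPM, a change of -0.29 (SE 0.052, edgeR adjusted p = 0.00016). The groups did not overlap in these 3 genes. The calls for PLOD1 (-0.18), P3H1 (0.26), P3H2 (0.18) and P3H3 (-0.24) were each lost without thapsigargin library 2, and those for P3H1 and P3H3 also without DMSO library 2 and that for P3H2 without DMSO library 1 (edgeR adjusted p of 0.05022 to 0.11). PLOD2, at 112 and 108 CPM and then 114 and 115 CPM, did not pass (0.057, adjusted p = 0.41). In this line too all 14 ER chaperones rose (median 1.52) and P4HB rose, by 0.73 (adjusted p = 1.4e-10). The mammary epithelial markers summed to 8829 and 8724 CPM in DMSO and 14124 and 14141 CPM in thapsigargin, and the stellate or mesenchymal markers to 22.9 and 27.9 CPM and then 38.3 and 34.1 CPM, and their part was not tested.

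The thapsigargin response was more negative in LX-2 than in HMLE for 5 of the 10 genes and more positive for none, tested as a difference of responses in 1 fit over both lines (27.7% of all genes called). PLOD2 differed most, by -1.92 (SE 0.12, edgeR adjusted p = 6.6e-12) on the log2 scale, and P4HA1, which fell in LX-2 and rose in HMLE, by -0.89 (SE 0.12, edgeR adjusted p = 2.4e-06). PLOD3 differed by -0.44 (adjusted p = 0.0029), and these 3 differences were also called with the discordant library kept. The differences for PLOD1 (-0.53) and P3H1 (-0.45) were not: with both libraries they were 0.13 (adjusted p = 0.84) and 0.054 (adjusted p = 0.97), and with library 2 alone 0.61 and 0.46. With it kept, P3H3 was called instead, at 1.73 (adjusted p = 0.033), which made 4 of 10 (21.6% of all genes).

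**Figure D2:**
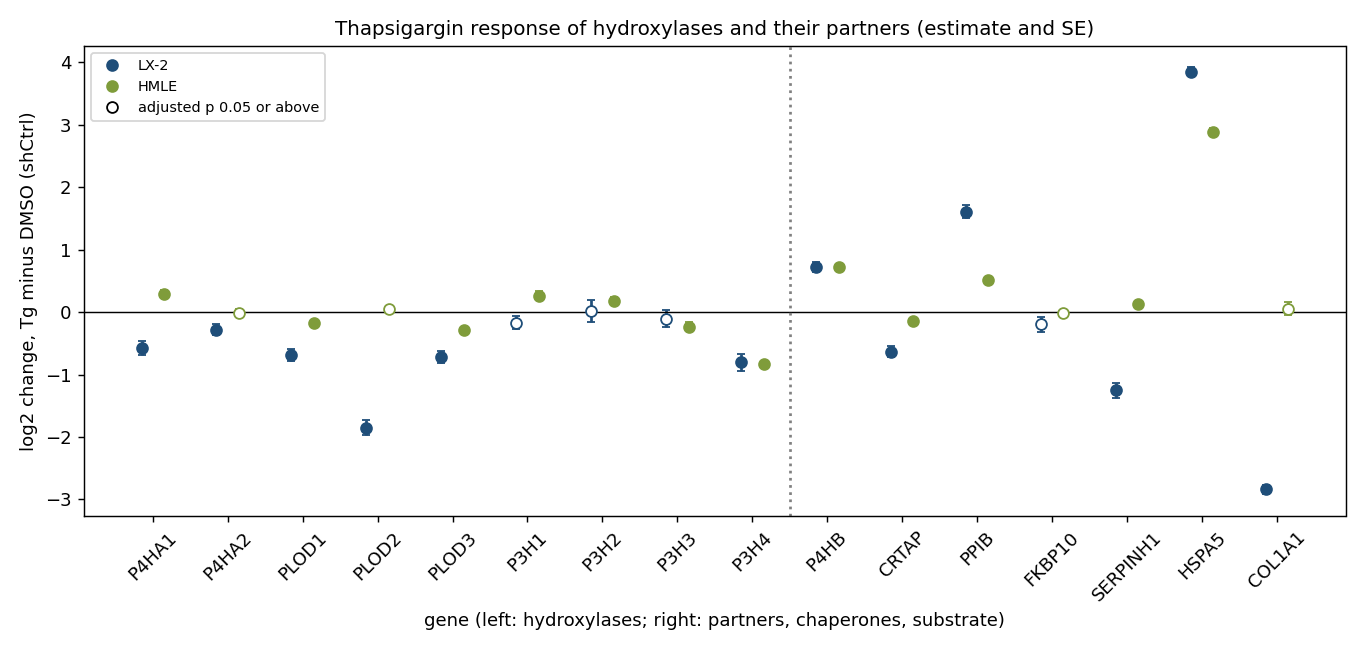
Log2 change from DMSO to thapsigargin (Tg) in shCtrl cells for 9 hydroxylase genes (left of the dotted line) and for their partners, chaperones and a substrate (right), in LX-2 (blue, without the discordant library) and HMLE (green). Points are edgeR estimates with standard errors, and open points have an adjusted p of 0.05 or above. P4HB, PPIB and HSPA5 are above 0 in both lines, while PLOD2 is at -1.85 in LX-2 and 0.057 in HMLE.

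Under AA_Dep, P4HA1 rose and 6 other genes fell in LX-2, against 45.6% of all genes called. The comparison shares its DMSO libraries with those of TGFbeta and thapsigargin. P4HA1 went from 43.5 and 46.4 CPM in DMSO to 57.8 and 64.8 CPM in AA_Dep, a log2 change of 0.48 (SE 0.09, edgeR adjusted p = 0.00043). The other alpha subunits did not rise: P4HA2 was at 178 and 168 CPM (-0.17, adjusted p = 0.055), and P4HA3 fell to 13 and 6 counts (-1.38, adjusted p = 0.014), a call lost without AA_Dep library 2 or DMSO library 1 (edgeR adjusted p of 0.12 and 0.085).

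All 3 lysyl hydroxylases fell in LX-2 AA_Dep. PLOD1 went from 229.6 and 269 CPM to 134 and 119.7 CPM, a log2 change of -0.95 (SE 0.08, edgeR adjusted p = 1.1e-07). PLOD2 went from 219 and 211 CPM to 148 and 182 CPM (-0.36, adjusted p = 0.0045) and PLOD3 to 149 and 133 CPM (-0.41, adjusted p = 0.00061). In each of these genes both AA_Dep libraries were below both DMSO libraries. P3H1 fell from 75.4 and 89.9 CPM to 47.1 and 46.4 CPM, a change of -0.79 (SE 0.086, edgeR adjusted p = 1.9e-06), and P3H4 fell to 48.7 and 37.3 CPM, a change of -0.84 (SE 0.11, edgeR adjusted p = 1.4e-05). P3H2 and P3H3 did not pass, at 0.26 (adjusted p = 0.13) and -0.19 (adjusted p = 0.2).

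The partners P4HB, CRTAP and PPIB also fell in this condition, P4HB while its alpha subunit P4HA1 rose. P4HB changed by -0.43, CRTAP by -0.39 and PPIB by -0.74 in LX-2, and all 3 passed. FKBP10 fell by 0.46 (adjusted p = 0.001). Of 9 fibrillar collagen genes 7 fell and none rose (median -1.98), and of 9 hypoxia-inducible genes 6 rose and none fell (median 0.61), led by BNIP3 (1.96) and VEGFA (1.18). The stellate or mesenchymal markers summed to 2773 and 2911 CPM and the mammary epithelial markers to 499 and 406 CPM in AA_Dep, both below DMSO, and their part was not tested. With the discordant library kept, none of the 10 genes passed in edgeR (13.0% of all genes), with 6 at an unadjusted p under 0.05. The log2 change of P4HA1 was then 0.47 (adjusted p = 0.064) and that of PLOD1 -0.96 (adjusted p = 0.072).

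In HMLE, AA_Dep changed 8 of the 10 genes, 2 higher and 6 lower, against 61.7% of all genes called. PLOD2 rose from 112 and 108 CPM in DMSO to 210.3 and 200 CPM, a log2 change of 0.90 (SE 0.049, edgeR adjusted p = 1e-11). P3H3 fell from 31.2 and 32.2 CPM to 7.21 and 7.13 CPM, a change of -2.14 (SE 0.088, edgeR adjusted p = 3.1e-13), and its binding partner P3H4 from 79.8 and 79.3 CPM to 33.1 and 30.5 CPM, a change of -1.32 (SE 0.059, edgeR adjusted p = 9.5e-13). These were the largest changes among the 10 genes here, and each exceeded the gap between replicates. PLOD1, the third protein of that complex, fell from 237 and 239.6 CPM to 169 and 163 CPM (-0.52, adjusted p = 2.6e-08).

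P3H1 fell by 0.48 (adjusted p = 5.8e-05) and P3H2 rose by 0.27 (adjusted p = 0.00033) in HMLE AA_Dep. P4HA1, at 61.1 and 57.1 CPM and then 59.1 and 58.5 CPM, did not pass (edgeR adjusted p = 0.95). P4HA2 fell by 0.25 (adjusted p = 0.0038), but at 52.3 and 61.9 CPM its 2 AA_Dep libraries lay far apart, and without library 1 the change was -0.066 (edgeR adjusted p = 0.46). The fall of PLOD3 (-0.17) was lost without either AA_Dep library or DMSO library 2 (edgeR adjusted p of 0.052 to 0.37). P4HB, CRTAP and PPIB all fell in HMLE as well, with log2 changes of -0.38, -0.29 and -0.38. Of 10 hypoxia-inducible genes 8 rose and 1 fell (median 0.67), with VEGFA at 2.29. The mammary epithelial markers summed to 9507 and 9781 CPM, above the 8724 to 8829 CPM of DMSO, and the stellate or mesenchymal markers to 46.2 and 46.4 CPM, above its 22.9 to 27.9 CPM, and their part was not tested.

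The AA_Dep response differed between the lines in 7 of the 10 genes, 3 more positive in LX-2 and 4 more negative (40.3% of all genes called). P3H3 differed by 1.93 (SE 0.16, edgeR adjusted p = 2.2e-10) and PLOD2 by -1.29 (SE 0.11, edgeR adjusted p = 2.5e-10) on the log2 scale. P4HA1, higher in LX-2 AA_Dep, differed by 0.46 (SE 0.1, edgeR adjusted p = 0.00093), and PLOD1 by -0.45 (adjusted p = 0.00031). The calls for PLOD3 (-0.26), P3H1 (-0.34) and P3H4 (0.46) were lost when single libraries were left out: DMSO library 2 of either line or AA_Dep library 2 of either line for PLOD3, DMSO library 2 of either line or HMLE AA_Dep library 1 for P3H1, and LX-2 DMSO or AA_Dep library 1 or HMLE AA_Dep library 2 for P3H4 (edgeR adjusted p of 0.051 to 0.12). With the discordant library kept, 2 of the 10 passed (14.5% of all genes), P3H3 at 1.93 (adjusted p = 0.028) and P4HA1 at 0.45 (adjusted p = 0.047), while PLOD2 was at -1.29 (adjusted p = 0.088).

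Twist overexpression raised 7 of the 10 genes in HMLE and lowered none, against 57.2% of all genes called in either direction. The median log2 change of the 10 genes was 1.39, against 0.0021 over all genes. This median includes P4HA3, which had few counts in HMLE. P3H1 rose most, 7.38-fold, and PLOD2 3.75-fold, while P3H2 and P3H4 did not pass. The sample titles name no empty-vector group and no vehicle for Twist_OE, so Twist and its vector cannot be told apart here. All 7 calls held when any single library was left out.

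P3H1 stood at 19.3 and 19.0 CPM in DMSO and at 137 and 145 CPM with Twist, a log2 change of 2.88 (SE 0.068, edgeR adjusted p = 2.5e-17). PLOD2 stood at 112 and 108 CPM and then 410.3 and 412 CPM, a change of 1.91 (SE 0.049, edgeR adjusted p = 7.1e-17). The replicates of both genes lay close together beside these gaps. PLOD1 rose from 237 and 239.6 CPM to 631 and 606 CPM, a change of 1.38 (SE 0.048, edgeR adjusted p = 8.5e-15), and PLOD3 from 116 and 118 CPM to 292 and 293 CPM, a change of 1.32 (SE 0.05, edgeR adjusted p = 3.1e-14). So all 3 lysyl hydroxylases were higher with Twist.

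P4HA2 rose from 68.5 and 68.1 CPM to 185 and 174 CPM, a change of 1.40 (SE 0.066, edgeR adjusted p = 7.8e-13), and P4HA1 from 61.1 and 57.1 CPM to 131 and 130.4 CPM, a change of 1.15 (SE 0.053, edgeR adjusted p = 5.8e-13). P3H3 rose from 31.2 and 32.2 CPM to 83.9 and 89.7 CPM, a change of 1.46 (SE 0.066, edgeR adjusted p = 4.3e-13). In all these genes the groups were fully apart. P3H2, the member with the highest level in HMLE relative to LX-2, stood at 56.1 and 57.7 CPM and then 61.2 and 61.6 CPM (0.11, adjusted p = 0.095), and P3H4 at 79.8 and 79.3 CPM and then 81.0 and 78.3 CPM (0.0051, adjusted p = 0.95). P4HA3 had 10 and 5 counts with Twist.

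The binding partners rose too: CRTAP by 1.07 (adjusted p = 7.3e-14), FKBP10 by 1.10 (adjusted p = 1.1e-12), P4HB by 0.71 (adjusted p = 4.5e-11) and PPIB by 0.18 (adjusted p = 0.0072). Of 7 fibrillar collagen genes tested, 6 rose and none fell (median 6.59), and COL1A1 went from 12.6 and 14.1 CPM to 1322 and 1240.1 CPM. Procollagen chaperoning and export genes rose in 8 of 9 and fell in 1, led by CREB3L1, a transcription factor of collagen secretion (8.01). Markers of cell type moved in the same comparison. TWIST1 was at 18.0 and 17.5 CPM in DMSO and 130.1 and 145 CPM with Twist, the 9 mammary epithelial markers summed to 8724 to 8829 CPM and then 1262 to 1325 CPM, and the 9 stellate or mesenchymal markers to 22.9 to 27.9 CPM and then 2688 to 2838 CPM. Their part in the result was not tested.

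**Figure D3:**
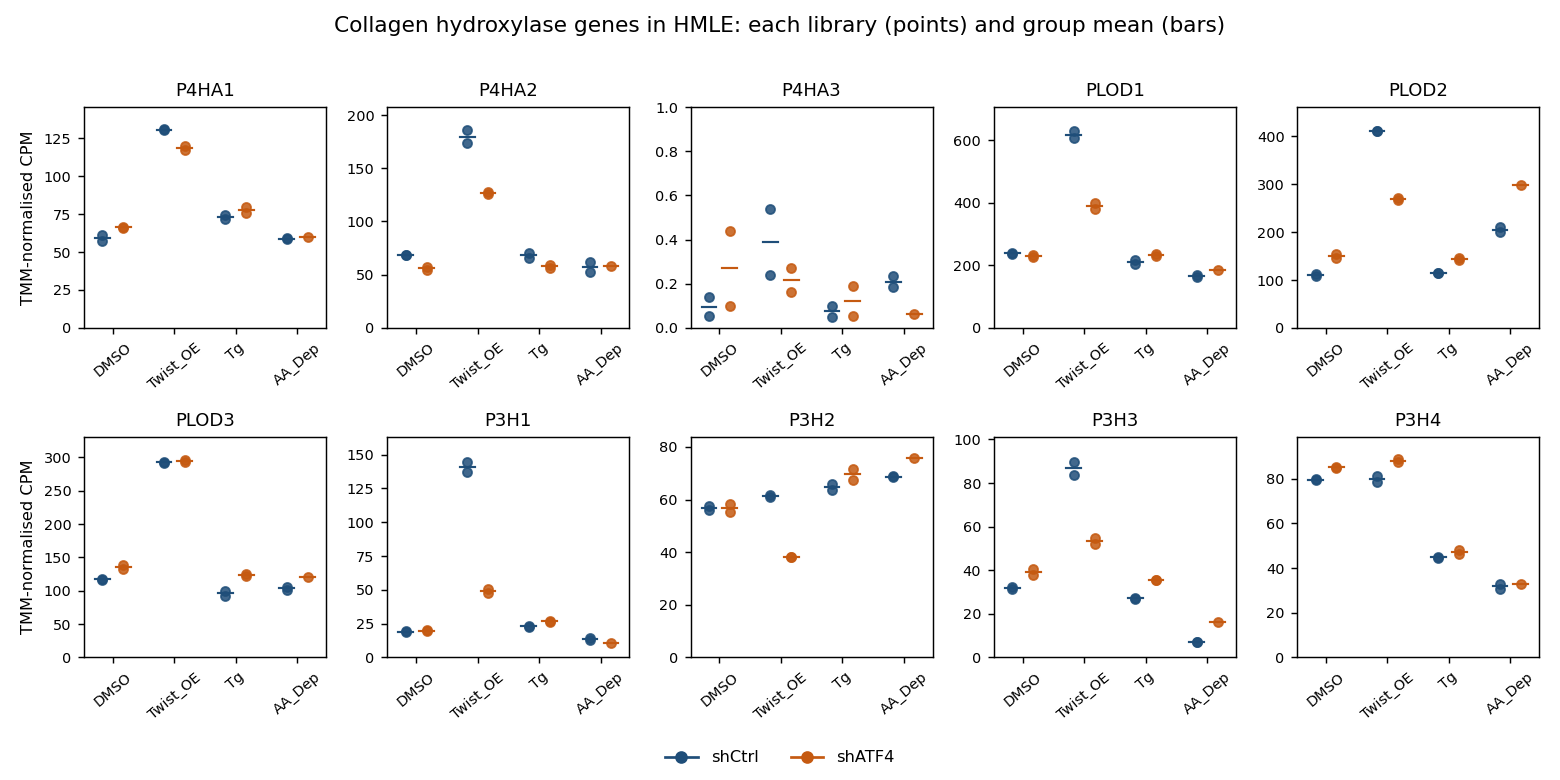
Level of each of the 10 genes in HMLE, in TMM-normalised CPM, by condition (Tg is thapsigargin) for the shCtrl (blue) and shATF4 (orange) hairpins. Points are libraries and bars are group means, with 1 library in shATF4 AA_Dep. P3H1 libraries lie between 137 and 145 CPM in shCtrl Twist_OE and between 47.4 and 50.8 CPM in shATF4 Twist_OE.

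In LX-2 the ATF4 hairpin lowered P4HA1, P3H2 and P3H4 in DMSO and the same genes and P3H1 in TGFbeta. In DMSO 3 were lower and none higher (11.6% of all genes called), and in TGFbeta 4 were lower and none higher (21.7%). P4HA1 and P3H2 passed in both conditions and held when any single library was left out. The DMSO and TGFbeta comparisons share no library. Cell type markers differed between the hairpins too. The 9 stellate or mesenchymal markers summed to 6496 and 6977 CPM in shCtrl and 4506 and 4446 CPM in shATF4 in DMSO, and to 17838 and 17830 CPM and 8854 and 8902 CPM in TGFbeta. The 9 mammary epithelial markers summed to 758 and 891 CPM and 390 and 372 CPM in DMSO, and to 1369 and 1485 CPM and 453 and 495 CPM in TGFbeta. The part of these markers in the result was not tested.

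P4HA1 stood at 43.5 and 46.4 CPM with the control hairpin and 28.5 and 30.6 CPM with the ATF4 hairpin in DMSO, a log2 difference of -0.58 (SE 0.093, edgeR adjusted p = 0.00074). In TGFbeta it stood at 108 and 115 CPM and 73.5 and 71.5 CPM, a difference of -0.62 (SE 0.089, edgeR adjusted p = 0.00011). The hairpin groups did not overlap in either condition. P3H2 stood at 8.83 and 10.6 CPM and 4.80 and 5.27 CPM in DMSO (-0.92, adjusted p = 0.00074), and at 17.5 and 18.0 CPM and 9.35 and 8.77 CPM in TGFbeta (-0.97, adjusted p = 9.8e-05). The P3H2 levels of shATF4 cells in TGFbeta overlapped those of shCtrl cells in DMSO.

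P3H4 was lower in DMSO (-0.45, adjusted p = 0.014) and in TGFbeta (-0.38, adjusted p = 0.02), and P3H1 in TGFbeta (-0.31, adjusted p = 0.014). These calls were less firm. The DMSO call of P3H4 was lost without either shATF4 library or without shCtrl library 2 (edgeR adjusted p of 0.077 to 0.14), and both TGFbeta calls without any single one of the 4 libraries compared (0.078 to 0.12). P4HA2 and the 3 lysyl hydroxylases did not pass in either condition, and for PLOD2 in TGFbeta the levels were 479.6 and 464 CPM and 432 and 436 CPM (-0.12, adjusted p = 0.37). Over the same libraries 8 of 9 fibrillar collagen genes fell in TGFbeta (median -1.39), with COL1A1 at -1.33. P4HB, CRTAP and PPIB did not pass there, at -0.006, -0.022 and -0.063.

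The size of the TGFbeta response did not pass as different between hairpins for any of the 10 genes in edgeR (0.987% of all genes called, and 2 of the 10 at an unadjusted p under 0.05) or in DESeq2. P4HA1 rose by 1.34 in shCtrl cells, and the difference between hairpins was -0.041 (SE 0.13, edgeR adjusted p = 0.97). For PLOD2 the difference was 0.085 (SE 0.13, edgeR adjusted p = 0.9), and for P3H2 -0.048 (SE 0.2, edgeR adjusted p = 0.98). With the discordant library kept, none passed in DMSO (0.242% of all genes, with 2 of the 10 at an unadjusted p under 0.05), and in TGFbeta 1 passed (1.29%), P3H2 at -0.97 (adjusted p = 0.025), with P4HA1 at -0.63 (adjusted p = 0.077).

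Under thapsigargin the hairpins did not separate in LX-2. None of the 10 genes passed in edgeR (5.20% of all genes called), with 1 at an unadjusted p under 0.05, or in DESeq2, and the same held with the discordant library kept (0.231%), with 3 at an unadjusted p under 0.05. P4HA1 was at 29.6 CPM in the concordant shCtrl library and at 32.2 and 32.5 CPM in the shATF4 libraries, and PLOD2 at 58.7 CPM and 60.3 and 64.8 CPM. With both hairpins these PLOD2 levels lay below every DMSO library. The response of P4HA1 to thapsigargin differed between the hairpins by 0.73 (SE 0.15, edgeR adjusted p = 0.0076), the only call among the 10 genes for this difference (6.13% of all genes), and with the discordant library kept it was 0.63 (adjusted p = 0.26). More of the 10 genes passed with library 2 alone standing for shCtrl thapsigargin, but the share of all genes in that fit was not computed. Over that fit and those without another single library, the P4HA1 difference ran from 0.59 to 0.78.

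In LX-2 AA_Dep, P4HA1 and PLOD2 were lower with the ATF4 hairpin (9.91% of all genes called). PLOD2 stood at 148 and 182 CPM and 99.7 and 98.3 CPM, a log2 difference of -0.74 (SE 0.092, edgeR adjusted p = 0.00013), and P4HA1 at 57.8 and 64.8 CPM and 42.6 and 45.2 CPM, a difference of -0.48 (SE 0.09, edgeR adjusted p = 0.0033). Both genes kept the groups apart, but the P4HA1 call was lost without shATF4 library 1, where its difference was -0.45. The hypoxia-inducible list was lower in 4 of 9 and higher in none (median -0.55), with VEGFA at -1.58. In AA_Dep the marker sums of the hairpins overlapped, at 2773 and 2911 CPM and 2812 and 2709 CPM for stellate or mesenchymal markers and at 499 and 406 CPM and 451 and 437 CPM for mammary epithelial markers. The AA_Dep response differed between hairpins for PLOD2 (-0.53, adjusted p = 0.017), P3H1 (0.45, adjusted p = 0.028) and P3H4 (0.69, adjusted p = 0.012), against 10.6% of all genes. Each of these 3 was lost without shATF4 AA_Dep library 2, shATF4 DMSO library 2 or shCtrl DMSO library 2, with further losses for PLOD2 and P3H1 without shATF4 AA_Dep library 1 and for P3H1 without shATF4 DMSO library 1 (edgeR adjusted p of 0.053 to 0.14). With the discordant library kept, none of the 10 passed in either test (0.0900% and 0.0675% of all genes), with 2 and 0 at an unadjusted p under 0.05.

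**Figure D4:**
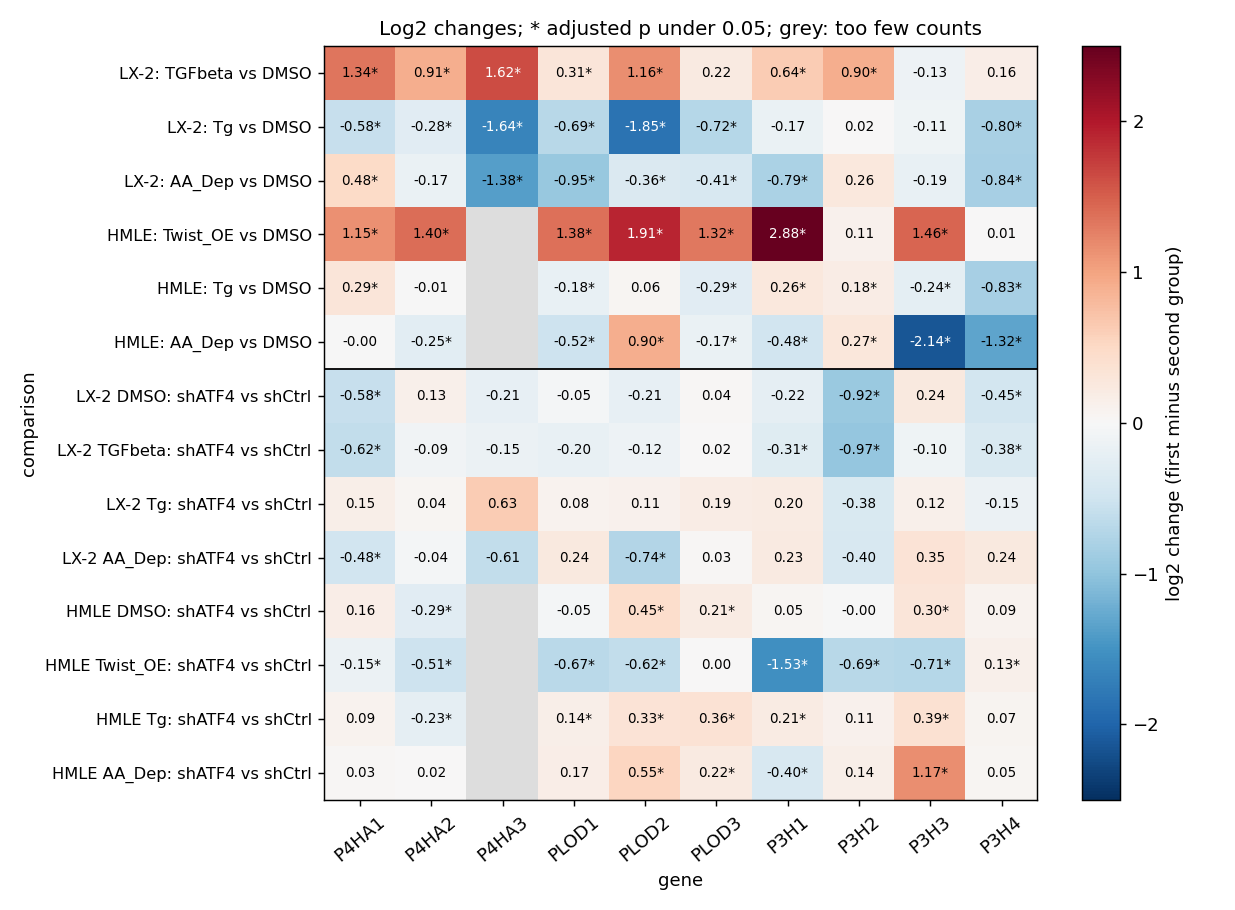
Log2 change of each gene (columns) in each comparison (rows), coloured from blue (lower in the first group) to red (higher), with the value printed and an asterisk at an edgeR adjusted p under 0.05. Rows above the line compare treatments with DMSO in shCtrl cells, and rows below compare hairpins within a condition, all LX-2 rows without the discordant library. Grey cells are P4HA3 in HMLE, at 1 to 10 counts per library. PLOD2 runs from -1.85 in LX-2 Tg to 1.91 in HMLE Twist_OE.

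In HMLE Twist_OE, 7 of the 10 genes were lower with the ATF4 hairpin and 1 was higher, against 47.2% of all genes called. TWIST1 itself was also lower with the ATF4 hairpin in these cells and the cell type markers differed, with values given below. The median log2 difference of the 10 genes, P4HA3 with its few counts included, was -0.65, against -0.023 over all genes. P3H1, the gene that Twist raised most, also had the largest difference between hairpins. PLOD3, which Twist raised 2.51-fold in shCtrl cells, showed none that passed.

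P3H1 stood at 137 and 145 CPM with the control hairpin and 47.4 and 50.8 CPM with the ATF4 hairpin, a log2 difference of -1.53 (SE 0.062, edgeR adjusted p = 1.5e-13). P3H3 stood at 83.9 and 89.7 CPM and 52.0 and 54.8 CPM, a difference of -0.71 (SE 0.063, edgeR adjusted p = 1.6e-08). P3H2 stood at 61.2 and 61.6 CPM and 38.2 and 38.2 CPM, a difference of -0.69 (SE 0.058, edgeR adjusted p = 8e-09). All 3 prolyl 3-hydroxylases were thus lower with the ATF4 hairpin, with no overlap between groups, and P3H2 lay below its shATF4 DMSO level of 58.4 and 55.4 CPM.

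Of the lysyl hydroxylases, PLOD1 stood at 631 and 606 CPM and 398 and 381 CPM, a log2 difference of -0.67 (SE 0.047, edgeR adjusted p = 5.5e-10). PLOD2 stood at 410.3 and 412 CPM and 266 and 272 CPM, a difference of -0.62 (SE 0.046, edgeR adjusted p = 1.4e-09). PLOD3 stood at 292 and 293 CPM and 296 and 293 CPM, within the spread of the replicates (edgeR adjusted p = 0.99). Among the alpha subunits, P4HA2 fell from 185 and 174 CPM to 128 and 126 CPM (-0.51, adjusted p = 1.6e-06). The small differences of P4HA1 (-0.15, adjusted p = 0.023) and P3H4 (0.13, adjusted p = 0.047) were each lost without any single one of the 4 libraries compared (edgeR adjusted p of 0.0502 to 0.2).

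The change from DMSO to Twist_OE was itself more negative with the ATF4 hairpin for 7 of the 10 genes and more positive for none. For this difference of responses 29.7% of all genes were called, and the TWIST1 level of the Twist_OE cells differed between the hairpins too. For P3H1 the difference of responses was -1.58 (SE 0.098, edgeR adjusted p = 2.1e-10), for PLOD2 -1.07 (SE 0.067, edgeR adjusted p = 2.4e-10) and for P3H3 -1.01 (SE 0.093, edgeR adjusted p = 6e-08). The difference was -0.69 (adjusted p = 1.7e-06) for P3H2, whose rise with Twist in shCtrl cells did not pass. It was -0.62 (adjusted p = 5.5e-07) for PLOD1 and -0.31 (adjusted p = 0.0032) for P4HA1. For PLOD3 it was -0.21 (adjusted p = 0.031), a call lost in 6 of 8 fits that each left out 1 library, the exceptions being shATF4 DMSO library 2 and shCtrl Twist_OE library 1 (edgeR adjusted p of 0.055 to 0.11 where lost). P4HA2 did not pass (-0.22, adjusted p = 0.09).

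**Figure D5:**
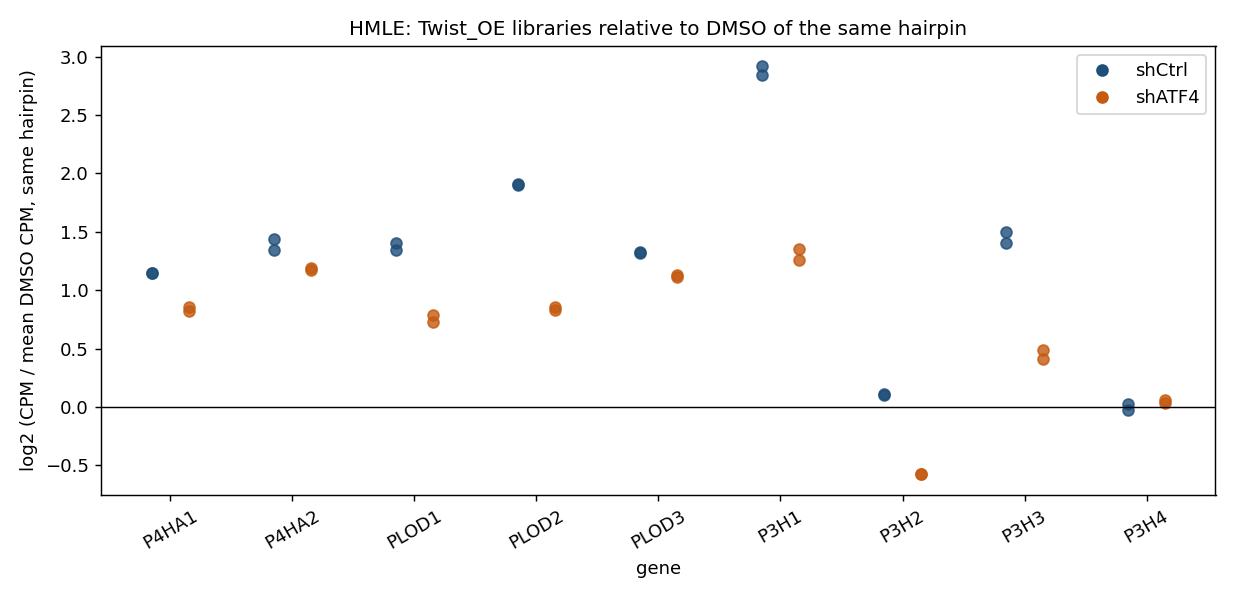
Log2 ratio of each HMLE Twist_OE library to the mean DMSO level of the same hairpin, for 9 genes, with shCtrl in blue and shATF4 in orange. Each point is 1 library. P3H1 lies near 2.9 in shCtrl and between 1.2 and 1.4 in shATF4, and P3H2 lies below 0 in shATF4 only.

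The cells of these groups also differed in the markers of cell type and in Twist itself. TWIST1 stood at 130.1 and 145 CPM with the control hairpin and at 32.1 and 32.7 CPM with the ATF4 hairpin, a log2 difference of -2.09 (adjusted p = 4.1e-12). The 9 mammary epithelial markers summed to 1262 to 1325 CPM in shCtrl and to 7029 to 7356 CPM in shATF4, and all 9 reached 1 CPM in both. In DMSO they summed to 8724 to 8829 CPM in shCtrl and to 8458 to 8735 CPM in shATF4. The 9 stellate or mesenchymal markers summed to 2688 to 2838 CPM in shCtrl and 371 to 433 CPM in shATF4, with 8 and 7 of 9 at 1 CPM or more and DES at 0 in shATF4 library 1. CDH1, the epithelial cadherin, stood at 23.5 and 19.5 CPM and 574 and 527 CPM. Of 7 fibrillar collagen genes 6 were lower and none higher with the ATF4 hairpin (median -2.21), as were 8 of 9 procollagen chaperoning and export genes (median -0.82), with 1 higher. CRTAP and FKBP10 were lower too, with log2 differences of -0.55 and -0.53. The part of TWIST1 and of the markers in the hydroxylase differences was not tested.

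Without Twist, PLOD2, PLOD3 and P3H3 were called higher with the ATF4 hairpin in each of the 3 other HMLE conditions. In DMSO 3 of the 10 were higher and 1 lower (12.8% of all genes called), in thapsigargin 5 and 1 (24.3%) and in AA_Dep 3 and 1 (16.9%). Most of these calls in DMSO, and some in thapsigargin and in AA_Dep, were lost when single libraries were left out. In AA_Dep only shCtrl libraries could be left out, because shATF4 is a single library there. P4HB, the shared subunit of prolyl 4-hydroxylase, was higher in all 3 conditions. The mammary epithelial markers summed to 8735 and 8458 CPM in shATF4 DMSO, overlapping shCtrl, to 13814 and 13571 CPM in thapsigargin, below the 14124 and 14141 CPM of shCtrl, and to 10303 CPM in AA_Dep, above its 9507 and 9781 CPM, and their part was not tested.

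PLOD2 stood at 112 and 108 CPM with the control hairpin and 146 and 154 CPM with the ATF4 hairpin in DMSO, a log2 difference of 0.45 (SE 0.049, edgeR adjusted p = 4.1e-06). In thapsigargin it stood at 114 and 115 CPM and 142 and 147 CPM (0.33, adjusted p = 4.5e-05). In AA_Dep the shCtrl libraries were at 210.3 and 200 CPM and the single shATF4 library at 299 CPM (0.55, adjusted p = 1.1e-06). The shATF4 libraries were above all shCtrl libraries in the 3 conditions. No call for PLOD2 was lost in the fits that left out a library. The single shATF4 AA_Dep library, on which the AA_Dep call rests, could not be left out. In LX-2 the differences for PLOD2 had the opposite sign in DMSO (-0.21, adjusted p = 0.16) and in AA_Dep (-0.74, adjusted p = 0.00013), and whether the lines differ in this was not tested.

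P3H3 was higher with the ATF4 hairpin in the same 3 HMLE conditions. In AA_Dep it stood at 7.21 and 7.13 CPM in shCtrl and 16.1 CPM in the single shATF4 library, a log2 difference of 1.17 (SE 0.12, edgeR adjusted p = 7.4e-07), and its fall in AA_Dep was smaller with the ATF4 hairpin by 0.87 (SE 0.14, edgeR adjusted p = 0.00053). That difference of responses was the 1 call among the 10 genes (5.09% of all genes), and P4HA2 joined it without shCtrl AA_Dep library 2. In thapsigargin P3H3 was higher by 0.39 (adjusted p = 0.00046) and in DMSO by 0.30 (adjusted p = 0.0064), the latter lost without shATF4 or shCtrl DMSO library 1 (edgeR adjusted p of 0.065 and 0.072). For the thapsigargin response none of the 10 genes passed as different between hairpins in edgeR (4.56% of all genes), with 1 at an unadjusted p under 0.05, or in DESeq2.

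PLOD3 was higher in thapsigargin by 0.36 (adjusted p = 4e-05). Its differences in DMSO (0.21) and AA_Dep (0.22) were lost without, respectively, either shCtrl library or shATF4 library 1, and without shCtrl AA_Dep library 1 (edgeR adjusted p of 0.052 to 0.15). P4HA2 was lower in DMSO (-0.29) and in thapsigargin (-0.23), calls lost without shATF4 library 2 or shCtrl library 1 in DMSO and without either shATF4 library or shCtrl library 1 in thapsigargin (0.051 to 0.14). PLOD1 (0.14) and P3H1 (0.21) were higher in thapsigargin, PLOD1 losing its call without any library but shCtrl library 1 and P3H1 without any of the 4 (0.075 to 0.29). P3H1 was lower in AA_Dep (-0.40, adjusted p = 0.024), a call lost without shCtrl AA_Dep library 1 (0.11). P4HB stood at 372 and 373 CPM and 565 and 548 CPM in DMSO, a difference of 0.57 (adjusted p = 3.8e-08), and was higher by 0.38 in thapsigargin and by 1.02 in AA_Dep.

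Across the 16 group means, centred within each line, the 10 genes did not share 1 pattern. The highest Pearson correlations of log2 CPM among them were between P4HA2 and PLOD1 (0.92) and between PLOD1 and PLOD3 (0.91), and the lowest between P3H2 and P3H3 (-0.35). These are descriptions over 16 groups that share libraries, lines and treatments, with shCtrl thapsigargin in LX-2 as its library 1. Among 10824 genes with at least 5 CPM on average, the closest patterns to P4HA2 were those of VCAN (0.99), MMP2 (0.97) and PLA2R1 (0.97), and to PLOD1 those of SERPINH1 (0.97), RECK (0.97) and COL18A1 (0.96). PLOD2 was closest to COL7A1 (0.95), CALD1 (0.94) and LTBP2 (0.94), PLOD3 to GAS6 (0.96), TPST1 (0.93) and COL6A1 (0.93), and P3H1 to MAGED2 (0.98), EML1 (0.95) and KDELR3 (0.95). P4HA1 had FHL3 (0.91), AEBP1 (0.89) and SEPTIN11 (0.87) nearest, P3H3 had FSD1 (0.96), CBX1 (0.95) and POMGNT1 (0.94), and P3H4 had the cyclin CCNB1 (0.94), DDX24 (0.93) and DNAJA1 (0.93). P3H2 had no gene above 0.79 (DSG2, with METTL17 at 0.78 and BHLHE40 at 0.77). P4HA3, at few counts, was nearest to AGPS (0.96), CRIPT (0.95) and TIMP3 (0.95).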

How the data were processed

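RNA-seq libraries of LX-2 and HMLE (32 samples, 31 distinct) were analysed from the counts per gene that the authors deposited, whole numbers for 58735 Ensembl genes, of which 58207 matched a symbol. Blank lines in the files (110 to 452 per file) named no gene and were left out. The submitters' processing notes name STAR, featureCounts, HOMER, Bowtie2, cutadapt and DESeq, and the builds hg38 and hg19, without versions. Which of them made the counts is not given in the sources used here. The 9 ChIP-seq samples were not analysed here.

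Counts were fitted with edgeR 4.0.16 in R 4.3.3 (limma 3.58.1): filterByExpr with the groups, TMM scaling, all groups of a line (or of both lines, for comparisons between them) in 1 quasi-likelihood fit, F tests, and Benjamini-Hochberg adjustment over all genes tested (18649 for LX-2, 17940 for HMLE, 20308 for both lines) at a threshold of 0.05. All 10 genes passed the filter in each fit, P4HA3 in HMLE through 1 library with 10 counts, a shCtrl Twist_OE library. Standard errors were taken as the size of the log2 change divided by the root of its F statistic. LX-2 shCtrl thapsigargin replicate 2 was left out of the reported fits, and with 1 library that group was assumed to vary like the others. Correlations used log2 CPM with a prior count of 2 between replicates and an offset of 0.5 for group means. The fit was tested on simulated data.

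The members and the gene lists were chosen with earlier results of these data known. Named beside the 10 genes were ATF4, HSPA5, COL1A1, P4HB, CRTAP, PPIB and FKBP10, up to 2 called genes of each list with the largest change, and the 3 genes nearest in pattern. TWIST1, PPME1 and CDH1 were named after values were seen. Alternatives were DESeq2's size factors, the DESeq2 1.42.0 Wald test, no filter and the replicate number as block. The discordant library was also kept, and each library was left out in turn. LX-2 shCtrl thapsigargin library 1 was left out with library 2 put in its place. The single HMLE shATF4 AA_Dep library was not left out, because its group would then be empty.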

Additional observations from a re-analysis of the deposited data

Results flagged for a closer look

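In 24 cases a gene of this family responded differently in 2 settings by a test of the difference itself (edgeR's interaction test, adjusted p under 0.05 over all genes). Values are differences of log2 responses, and the cause of none was tested.

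The thapsigargin response, LX-2 minus HMLE, differed for P4HA1 (-0.89), PLOD1 (-0.53), PLOD2 (-1.92), PLOD3 (-0.44) and P3H1 (-0.45), against 27.7% of all genes called. The values for PLOD1 and P3H1 change sign with the discordant LX-2 library.

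The AA_Dep response, LX-2 minus HMLE, differed for P4HA1 (0.46), PLOD1 (-0.45), PLOD2 (-1.29), PLOD3 (-0.26), P3H1 (-0.34), P3H3 (1.93) and P3H4 (0.46), against 40.3% of all genes called. The calls for PLOD3, P3H1 and P3H4 were each lost without certain single libraries. With the discordant library kept, only P3H3 and P4HA1 passed.

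The Twist response in HMLE, shATF4 minus shCtrl, differed for P4HA1 (-0.31), PLOD1 (-0.62), PLOD2 (-1.07), PLOD3 (-0.21), P3H1 (-1.58), P3H2 (-0.69) and P3H3 (-1.01), against 29.7% of all genes called. The PLOD3 call was lost without certain single libraries. TWIST1 stood at 130.1 and 145 CPM in shCtrl and 32.1 and 32.7 CPM in shATF4 Twist_OE cells, and its part was not tested.

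The remaining differences between hairpins included that of P3H3 in the HMLE AA_Dep response (0.87, against 5.09% of all genes called), where shATF4 AA_Dep is a single library. P4HA1 differed in the LX-2 thapsigargin response (0.73, against 6.13%), where shCtrl thapsigargin is a single library. PLOD2 (-0.53), P3H1 (0.45) and P3H4 (0.69) differed in the LX-2 AA_Dep response (against 10.6%). The LX-2 AA_Dep calls were each lost without certain single libraries. With the discordant library kept, none of these LX-2 differences passed, and that of P4HA1 was 0.63 (edgeR adjusted p = 0.26).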

How the results depend on the processing

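Of 106 calls of single genes, 102 stayed past the threshold with DESeq2's size factors in edgeR, 97 with the DESeq2 Wald test and 96 with no filter on low counts, none changing sign. The replicate number as a block moved none of the 106 single-gene calls across the threshold. The labels do not say whether the numbers pair the samples. Deviations of same-numbered samples correlated at -0.47 to 0.40 in LX-2 (median -0.033, 6 of 21 pairs of groups over 0.1). In HMLE they correlated at -0.078 to 0.33 (median 0.079, 10 of 21). These values do not settle whether the samples were paired. With 1 library left out at a time, 71 of the 106 calls held every time.

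With the discordant LX-2 library kept, the number of the 10 genes called was 3 for TGFbeta (7 without it), 0 for AA_Dep (7), 0 for the ATF4 hairpin in DMSO (3), 1 in TGFbeta (4) and 0 in AA_Dep (2), 0 for the hairpin difference of the thapsigargin response (1) and of the AA_Dep response (3), and 2 for the AA_Dep response between lines (7). It widened the coefficient of biological variation in LX-2 from 9.21% to 29.5%. Reversed then were the thapsigargin changes in LX-2 of P4HA2 (0.0019), PLOD1 (0.11) and P3H4 (0.044) and the difference of thapsigargin responses between lines for PLOD1 (0.13) and P3H1 (0.054).

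With single libraries left out, the number called was 2 each time for the ATF4 hairpin in LX-2 TGFbeta and ranged from 0 to 7 in LX-2 thapsigargin, from 1 to 6 in LX-2 AA_Dep, from 1 to 3 in HMLE DMSO, from 3 to 4 in HMLE thapsigargin and from 2 to 4 in HMLE AA_Dep. It ranged from 3 to 7 for thapsigargin in HMLE, from 1 to 9 for the hairpin difference of the LX-2 thapsigargin response, from 0 to 4 for that of the LX-2 AA_Dep response, from 1 to 2 for that of the HMLE AA_Dep response, and from 5 to 9 for the thapsigargin response between lines. In these fits the LX-2 thapsigargin changes ran from -0.34 to 0.19 for P4HA2, from -0.78 to 0.57 for PLOD1 and from -0.88 to 0.53 for P3H4, and the difference between lines from -0.64 to 0.61 for PLOD1 and from -0.57 to 0.46 for P3H1. The positive ends, and the counts of 7 in LX-2 thapsigargin and of 9, come from the fit in which the discordant library alone stands for shCtrl thapsigargin. P4HA3 is limited by depth, at 0 to 81 counts per library.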
